A study of Mus musculus with 20 samples.

Results

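The genes described here are 29 genes of cholesterol biosynthesis and of its control by the transcription factor SREBP2. They were chosen as a named list, by gene symbol, and all 29 were found in both of the study's RNA-seq tables and joined by Ensembl identifier. In all, 56884 genes are listed for male liver and 18149 for female liver. The samples were livers of mice aged 11 to 14 weeks, with RNA-seq of 3 WT males, 3 Midn-T males, 3 WT females and 3 Midn-T females. The genotype of the WT mice is labelled Midn XTR, the cassette allele in its expressed state, and that of the Midn-T mice Midn TR, the trapped state. Trapping was driven by Albumin-Cre, a liver-specific line that the paper used to inactivate Midn selectively in hepatocytes. The paper gives no check by cell type, so the state of the allele in other liver cells is not known. The sources do not state whether the WT mice carried Cre. ATAC-seq of 2 WT and 2 Midn-T livers of each sex was also made and was not used here.

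Each table holds, for every gene, 1 mean normalized count over the 6 livers of that sex, WT and Midn-T together, beside the columns of the authors' own comparison of the genotypes, which were not used. The values below are therefore the authors' means for male and for female liver, and no statement about WT against Midn-T is made from them. They carry no spread between mice, so no test was run and no standard deviation is given. The depth of each library is unknown. The 2 tables were normalized separately, so sex cannot be told apart from any other difference between the 2 sets of libraries. Each set also mixes both genotypes, so the female over male ratios do not separate sex from any genotype difference that is unequal in the 2 sexes.

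Cholesterol is made from acetyl-CoA through mevalonate, isoprenoid diphosphates, squalene and lanosterol, and the liver is a main site of this synthesis. SREBP2 is held in the membrane of the endoplasmic reticulum by SCAP and the INSIG proteins while sterols are plentiful. When sterols fall, SCAP escorts it to the Golgi, where it is cleaved, and the released fragment enters the nucleus and activates genes of nearly every step of the pathway, commonly together with NF-Y and Sp1 bound nearby.

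The upstream sequences of Hmgcs1, Mvd and Ggps1 are shown because these are, among the members with 1 start in the RefSeq promoter table, those with the 2 highest and the lowest female over male ratios described below. Each line gives the 200 bases before the start, 5′ to 3′, on the strand of the gene in GRCm38.p6. Capitals mark exact matches on either strand to TCACNCCAC (a form of the sterol regulatory element that SREBP binds), CCAAT (the NF-Y box) and GGGCGG (the GC box of Sp1).
Hmgcs1, chr13:119690151-119690350, plus strand: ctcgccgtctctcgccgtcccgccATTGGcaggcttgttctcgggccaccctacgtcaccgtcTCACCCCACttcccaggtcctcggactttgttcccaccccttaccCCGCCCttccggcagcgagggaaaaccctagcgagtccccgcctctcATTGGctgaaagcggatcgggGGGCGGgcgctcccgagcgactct
Mvd, chr8:122443423-122443622, minus strand: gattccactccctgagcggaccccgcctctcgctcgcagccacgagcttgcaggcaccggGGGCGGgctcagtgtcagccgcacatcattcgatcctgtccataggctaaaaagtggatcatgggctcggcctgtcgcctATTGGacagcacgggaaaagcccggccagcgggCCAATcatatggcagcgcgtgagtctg
Ggps1, chr13:14063489-14063688, minus strand: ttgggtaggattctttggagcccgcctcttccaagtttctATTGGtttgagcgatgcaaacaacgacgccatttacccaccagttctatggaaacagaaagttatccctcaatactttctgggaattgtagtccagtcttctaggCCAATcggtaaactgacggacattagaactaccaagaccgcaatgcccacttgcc
Within these stretches, Hmgcs1 held all 3 kinds of letters, Mvd held CCAAT and GC box letters, and Ggps1 held CCAAT letters alone. Picked by their ratios, these 3 do not show how letters and ratios go together. Over the 24 members with a promoter sequence, the median log2 ratio was 0.34 for the 21 with GC box letters and 0.62 for the 3 without. For CCAAT letters it was 0.42 for the 21 with them and 0.21 for the 3 without. A relation of letters to ratios was not tested.

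The SREBP site letters of Hmgcs1 ran from 137 to 129 bases before the start, with CCAAT letters from 176 to 172 and from 45 to 41 bases before it. In Mvd the CCAAT letters lay from 60 to 56 and from 27 to 23 bases before the start, and in Ggps1 from 160 to 156 and from 55 to 51. Of the 29 members, 24 matched a gene in the promoter table, which spans 250 bases before to 50 bases after each start. Fdps, Fdft1, Sqle, Stard4 and Soat2 have no entry. The 9 letters TCACNCCAC were present in the promoter of 1 of the 24 (4.17%), Hmgcs1, against 1.45% of the 10138 protein-coding genes with a promoter and a measured ratio. The shorter TCACNCCA, which any match to the longer form also contains, was present in 3 of 24 (12.5%), against 4.53%. The matches outside Hmgcs1 are shown with 10 bases on either side and the matching letters in capitals, on the strand that reads TCACNCCA.
Msmo1, chr8:64733738-64733765, minus strand: ctcactattcTCACTCCAtccgcgcagc
Srebf2, chr15:82147097-82147124, plus strand: tgacgcaccaTCACCCCAtgagccgctt
The Msmo1 match began 177 bases and the Srebf2 match 162 bases before the start. CCAAT letters were present in 21 of the 24 promoters (87.5%), against 43.1% of all 10138, and were not found in those of Acat2, Erg28 and Scap. GC box letters were likewise present in 21 (87.5%), against 66.8%. The median number of starts per gene was 1 both for the members and for all genes. Such matches describe letters in a window of reference sequence, and a promoter without one may hold other forms of a site.

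**Figure D1:**
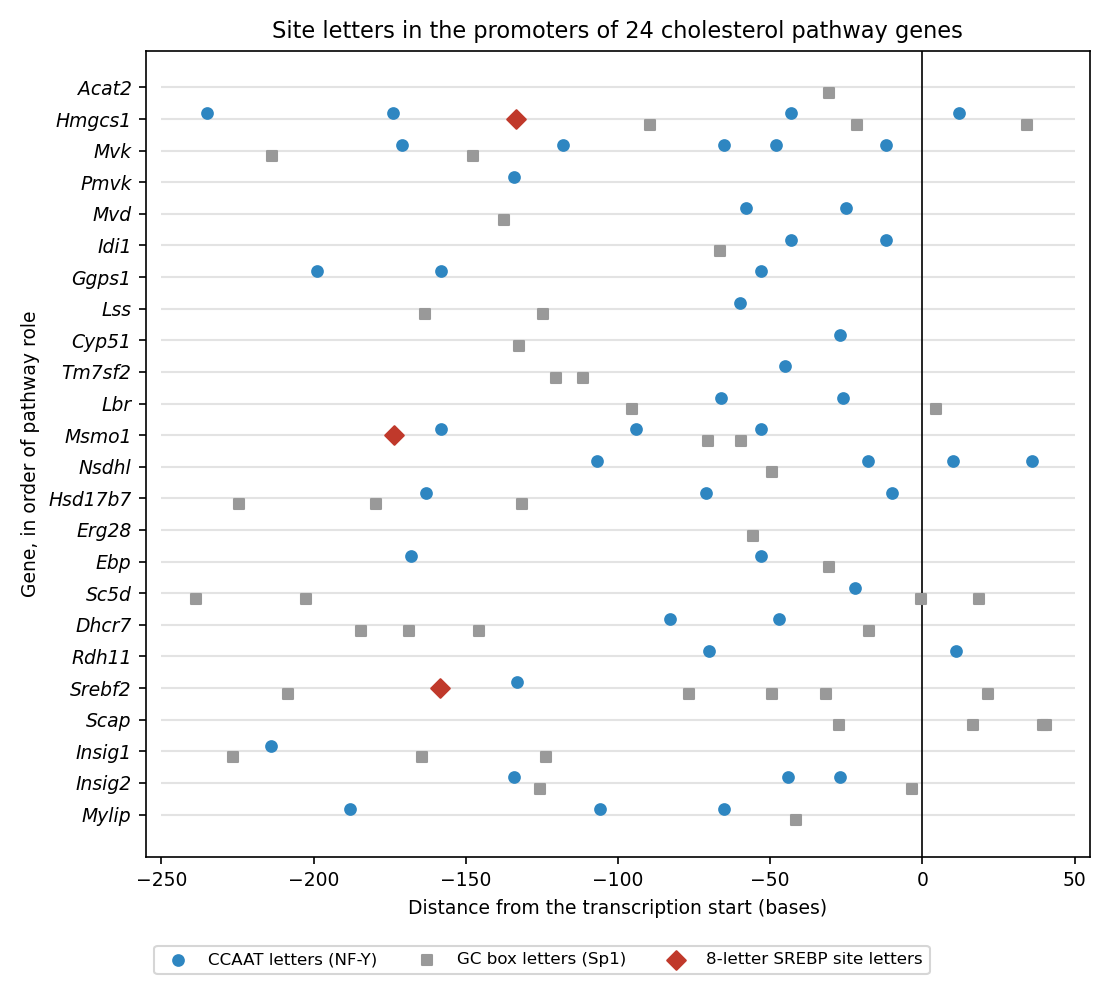
Positions of exact matches to site letters in the RefSeq promoters of 24 members; the horizontal axis is the distance in bases from the transcription start, and each row is 1 gene, with all of its listed starts overlaid. Circles are CCAAT letters, squares are GC box letters and diamonds are the 8 letters TCACNCCA; of the 47 CCAAT matches, 33 lie within the 150 bases before the start.

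Of the 47 CCAAT matches over all listed starts, 33 lay within the 150 bases before the start, and the median match lay 60 bases before it. The positions of these letters over all genes were not tabulated. For the GC box, 28 of 46 matches lay in the same 150 bases, with the median 83 bases before the start.

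The labels of the livers were first checked against marker genes. Albumin and the other 5 hepatocyte markers were among the abundant transcripts of both tables, with Alb at a mean normalized count of 1726242 in male and 2332943 in female liver. Xist, the RNA of X inactivation, had 14.0 in male and 72478 in female liver, and 4 Y-linked genes with means from 964 to 3147 in males are not listed in the female table. All 4 genes known for higher expression in male liver were lower in female liver, and all 4 known for higher expression in female liver were higher there. Summed markers of Kupffer cells and leukocytes, endothelium, stellate cells and cholangiocytes differed between the sexes by 0.08, 0.18, 0.32 and 0.00 on the log2 scale, and that of hepatocytes by 0.32, each relative to the median of all genes. Ratios above that median were found for 4 of 6 hepatocyte, 3 of 4 Kupffer and leukocyte, 3 of 3 endothelial, 3 of 3 stellate and 3 of 4 cholangiocyte markers. The hepatocyte sum is mostly Alb, at 0.38, while the median of these 6 markers was 0.10. The 2 hepatocyte markers below the median of all genes were Hnf4a, at -0.27, and Ttr, at -0.15. The cholangiocyte sum is mostly Sox9, at -0.28, while the median of these 4 markers was 0.53, above that of the cholesterol genes, and 2 of them were past 1.5-fold. These were Krt19, at 0.90 with mean normalized counts of 19.7 in male and 38.1 in female liver, and Krt7, at 0.59 with 22.1 and 34.3. Their part in the ratios below was not tested, and in whole liver fewer cells of a type cannot be told apart from less RNA per cell. Midn, the targeted gene, had means of 1672 in male and 1357 in female liver, which pool both genotypes and so check no genotype label.

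To compare genes with one another, each mean was divided by the summed length of the gene's annotated exons and scaled to a sum of 1000000 over all genes listed in both tables. On this length-scaled level the members were mostly abundant. Their median was 50.0 in male and 64.6 in female liver, against 9.14 and 9.07 for the 13621 protein-coding genes, and 27 of 29 members exceeded the protein-coding median in each sex. Hmgcs1 and Sc5d led in female liver with 673 and 591, followed by Insig1 with 489. In male liver the order was Sc5d with 376, Insig1 with 338 and Hmgcs1 with 286. Mvk had the lowest level in both sexes, 5.40 in male and 7.34 in female liver, followed by Lbr with 7.6 and 7.94. The order of the members was close to the same in both sexes, with no member moving by more than 3 ranks, or 5 with the longest annotated transcript as the length. In the absence of a spread between mice, neighbours in this order cannot be ranked firmly, and 16 of the 28 adjacent pairs in female liver lay within 1.1-fold of each other. The level also depends on the length chosen, so ratios between genes that moved by over 1.5 times with the longest transcript are given both ways.

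**Figure D2:**
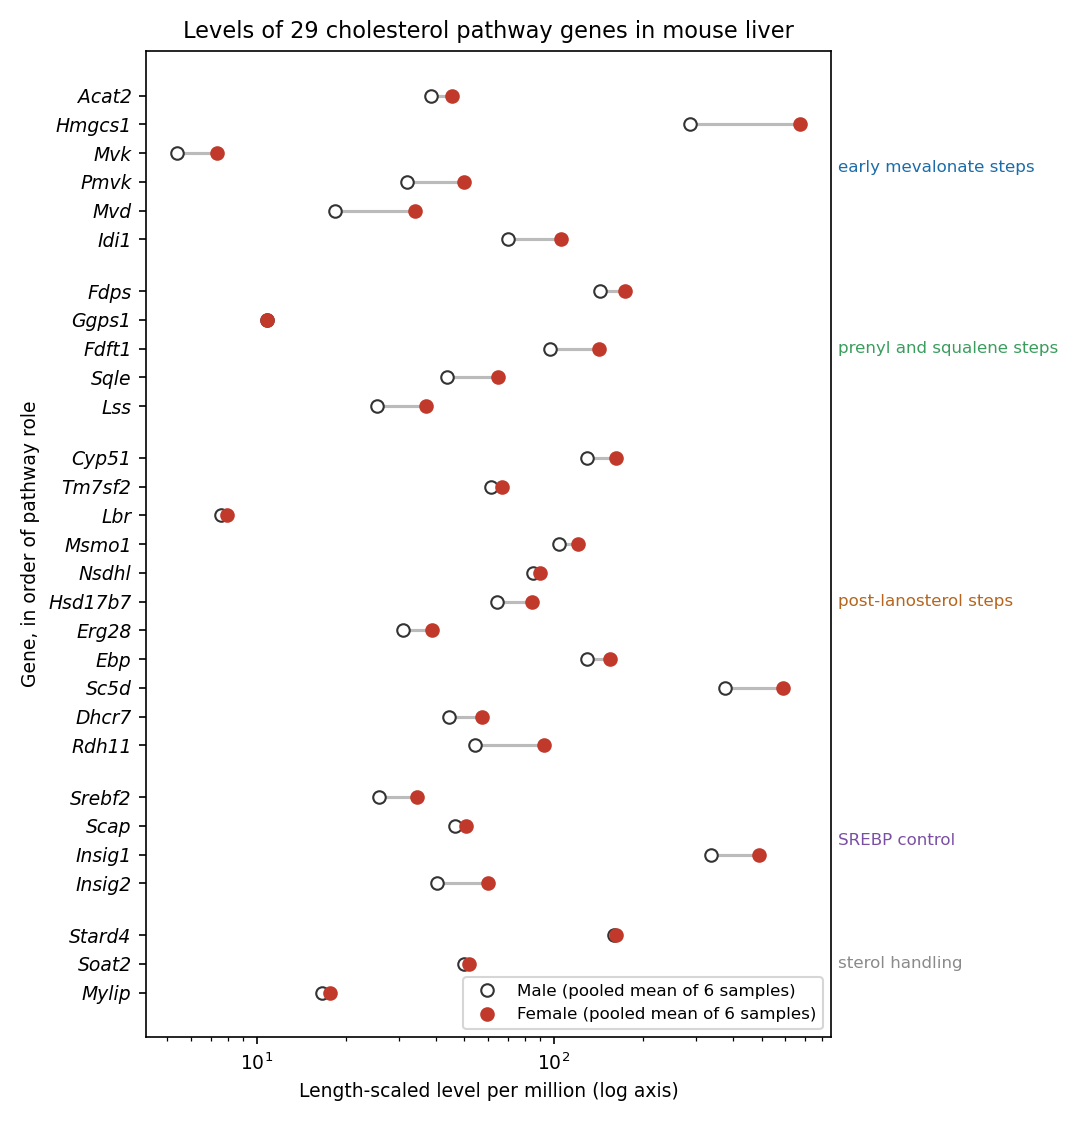
Length-scaled level of each of the 29 members on a logarithmic axis, in male liver (open circles) and female liver (filled circles), each a pooled mean of 6 livers with no error bar because the tables give no spread. Levels run from 5.40 (Mvk, male) to 673 (Hmgcs1, female), and the circles of Ggps1 coincide at 10.8.

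Levels differed widely between successive enzymes. In the early mevalonate steps, Hmgcs1, the cytosolic HMG-CoA synthase, stood 53.0-fold in male and 91.8-fold in female liver above Mvk, the mevalonate kinase that acts further down. With the longest transcript as the length these folds were 35.1 and 60.8. Hmgcs1 stood 7.38-fold and 14.8-fold above Acat2, the cytosolic thiolase of the first condensation. Pmvk and Mvd, the next kinase and the decarboxylase, had levels of 32.0 and 18.3 in male and 49.8 and 34.2 in female liver. Idi1, which interconverts the isoprenoid building blocks, had 69.9 and 106.

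At the branch to longer isoprenoids, Fdps, which makes farnesyl diphosphate, exceeded Ggps1, which makes geranylgeranyl diphosphate, 13.2-fold in male and 16.0-fold in female liver, or 21.6-fold and 26.2-fold with the longest transcript. Fdft1, the squalene synthase, had levels of 96.7 and 142, while Sqle, the squalene epoxidase, had 43.6 and 64.6, and Lss, the lanosterol synthase, 25.3 and 37.0. These 3 enzymes thus stood in the same descending order in both sexes.

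Of the post-lanosterol enzymes, Sc5d, the sterol C5 desaturase, exceeded Dhcr7, the reductase of the final double bond in one branch, 8.45-fold in male and 10.4-fold in female liver, or 5.13-fold and 6.29-fold with the longest transcript. Both Tm7sf2 and Lbr encode a sterol C14 reductase, and Tm7sf2 stood 8.06-fold and 8.45-fold above Lbr, which is also a receptor for lamin B in the nuclear envelope. Some of the exon length of Tm7sf2, 10.8%, overlaps exons of Vps51 in the same orientation, which leaves its value uncertain. For Lbr this share was 1.00%, and no other member shares exon sequence on its strand with another annotated gene. Cyp51, the lanosterol demethylase, Ebp, a sterol isomerase, and Msmo1, a methyl oxidase, had female levels of 162, 154 and 121, an order that turned with the longest transcript, to 149, 180 and 208.

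Among the genes of SREBP control, Insig1 exceeded its paralog Insig2 8.38-fold in male and 8.17-fold in female liver. With the longest transcript as the length these folds were 4.55 and 4.44. Insig1 exceeded Scap 7.27-fold and 9.63-fold, or 3.09-fold and 4.10-fold with the longest transcript, as Scap has a long summed exon length. Srebf2, which encodes SREBP2, had levels of 25.7 in male and 34.7 in female liver. Stard4, a sterol carrier, had 159 and 162, and Soat2, which esterifies cholesterol for lipoprotein assembly, 50.0 and 51.9. Mylip, a ubiquitin ligase for lipoprotein receptors that responds to the sterol sensor LXR, had 16.6 and 17.7.

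The members were next compared between male and female liver through the log2 ratio of the female over the male mean normalized count. It was centred on its median, 0.05, over the 16283 genes with a mean of at least 10 in both sexes. A gene was called higher or lower at 1.5-fold, a rule of size and not a test. Of the 29 members, 28 had a centred ratio above 0, a count that was 27 to 29 under other minimums and centrings because Ggps1 and Stard4 lie near 0, and 6 were called higher in female liver, a share of members to set beside the 7.31% of all genes called higher. No member was called lower, against 4.31% of all genes. At 2-fold, Hmgcs1 was the 1 member called higher and no member was lower, against 1.99% and 1.5% of all genes. The median centred ratio of the members was 0.34, a 1.26-fold difference, against 0.00 for all genes and -0.03 for protein-coding genes. Of the members, 19 exceeded 0.23, the 75th percentile of all genes, and 3 exceeded 0.70, the 95th.

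**Figure D3:**
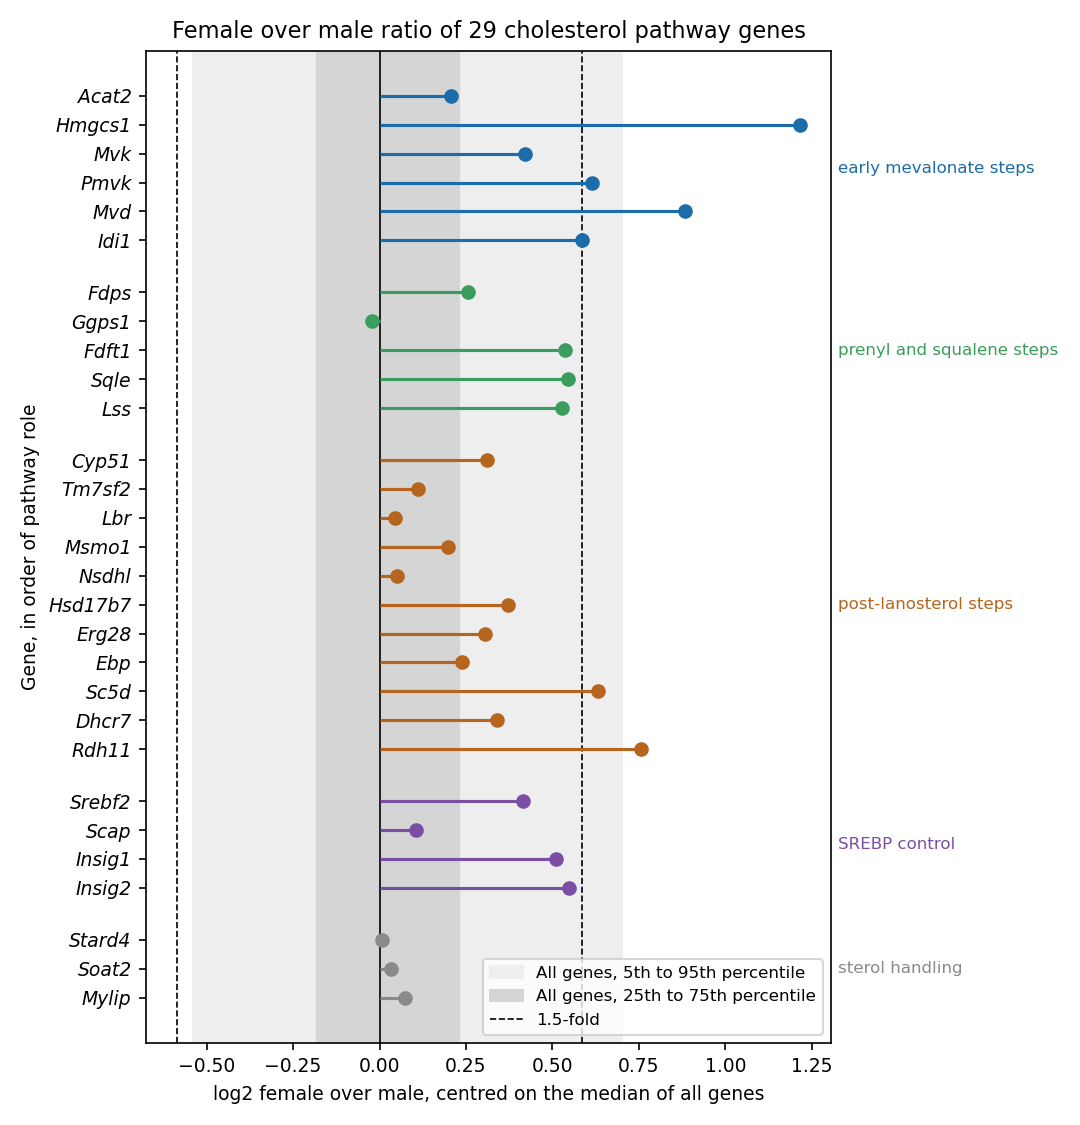
Centred log2 ratio of the female over the male mean normalized count for each member, in order of pathway role; the dark and light bands run from the 25th to the 75th and from the 5th to the 95th percentile of all 16283 genes, and the dashed lines mark 1.5-fold. All members but Ggps1, at -0.02, lie above 0, and 6 lie at or past the right dashed line.

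Hmgcs1 (ENSMUSG00000093930) (GRCm39 chromosome 13, 120151915 to 120170470) had the highest ratio. Its mean normalized count was 11631 in male and 27975 in female liver, a centred log2 ratio of 1.22 or 2.32-fold, higher than that of 98.8% of all genes. Mvd (ENSMUSG00000006517, chromosome 8, 123160336 to 123170324) followed with means of 385 and 736 and a ratio of 0.88. Both encode enzymes of the mevalonate part of the pathway. Rdh11 (ENSMUSG00000066441, chromosome 12, 79220408 to 79239067), a retinol dehydrogenase that SREBP factors also activate, had means of 1738 and 3037 and a ratio of 0.75. These were the 3 members past the 95th percentile of all genes.

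Sc5d (ENSMUSG00000032018, chromosome 9, 42162891 to 42175605) had means of 17835 in male and 28639 in female liver, a ratio of 0.63. Pmvk (ENSMUSG00000027952, chromosome 3, 89361758 to 89376323) had 948 and 1505, a ratio of 0.62. Idi1 (ENSMUSG00000058258, chromosome 13, 8935537 to 8942487) had 1915 and 2981, and its ratio of 0.59 lay just past the 1.5-fold mark of 0.585. The annotation names 5 pseudogenes of Idi1, whose effect on its uniquely mapped reads was not tested. The nearest members under the mark were Insig2 with 0.55, Sqle with 0.54 and Fdft1 with 0.54, so the count of 6 turns on small distances.

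By role, the early mevalonate steps had the highest median ratio, 0.60, with 4 of 6 members called higher, against 7.31% of all genes. Acat2, at 0.21, and Mvk, at 0.42, were the other two. In the prenyl and squalene steps the median was 0.53 and no member of 5 was called. Fdft1, Sqle and Lss lay together, at 0.54, 0.54 and 0.53, while Fdps had 0.26. The exception was Ggps1, which leads away from sterols, with means of 471 in male and 481 in female liver and a ratio of -0.02.

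The 11 post-lanosterol members, among which Rdh11 is counted here, had a median ratio of 0.30. Of these, 2 were called higher, Sc5d and Rdh11, against 7.31% of all genes. Ratios of the 11 ran from 0.04 for Lbr to 0.75 for Rdh11. Hsd17b7, a sterol ketone reductase, had 0.37, Dhcr7 had 0.34, Cyp51 had 0.31 and Erg28, a scaffold of the demethylation complex, had 0.30. Lbr and Tm7sf2, with the same reaction, had 0.04 and 0.11. Nsdhl, a sterol dehydrogenase, had 0.05, and Ebp had 0.24; both lie on the X chromosome, whose 436 measured genes had a median of 0.08.

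The 4 genes of SREBP control had a median of 0.46 and none was called. Srebf2 had means of 1853 and 2559 and a ratio of 0.42, and Insig1 had means of 12760 and 18837 and a ratio of 0.51. Scap, at 0.10, was the lowest of the 4. The sterol handling genes were nearest to the median of all genes, with Stard4 at 0.01, Soat2 at 0.03 and Mylip at 0.07. As a share of all mean normalized counts of a table, the 29 members made up 0.366% in male and 0.529% in female liver. Abundant members weigh most in this share, and Sc5d, Hmgcs1 and Insig1 had the highest means of the members in both sexes. The early mevalonate steps held 17.8% of the members' summed length-scaled level in male and 24.9% in female liver, of which Hmgcs1 held most.

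The 3 named lists of related genes were set beside the members. The fatty acid arm, genes that SREBP1 is known to activate, had a median ratio of 0.36, with 9 of 10 genes above 0. Against 7.31% of all genes, 3 of the 10 were called higher. These were Elovl5, a fatty acid elongase, at 0.92, Acss2, an acetyl-CoA synthetase, at 0.82, and Acly, the ATP citrate lyase that supplies cytosolic acetyl-CoA, at 0.59. Acly lay on the mark and Fasn, the fatty acid synthase, at 0.58, just under it. With no minimum 2 genes were called, against 9.9% of all genes. The count was 4, Fasn included, with a minimum of 100 (4.39% of all genes) or another centring (7.94% to 8.7%). Fads2, a fatty acid desaturase, at -0.21, was the gene below 0, joined with no minimum by Scd1, another desaturase, which had 0.02. The isoprenoid branches, which use the diphosphates that Fdps and Ggps1 make for prenylation, ubiquinone and dolichol, had a median of -0.05, with 3 of 12 genes above 0 and none called. The SREBP processing and degradation list had a median of -0.20, with none called and all 6 genes below 0. It holds Mbtps1 and Mbtps2, the proteases that cleave SREBP, at -0.12 and -0.12, and Rnf145, a ubiquitin ligase that acts on SCAP, at -0.57. With no minimum Rnf145 was called lower, against 4.74% of all genes. Under the other centrings and minimums tried, the members' ratios moved by -0.02 to 0.05, and since those shifts apply to every gene, the median of the isoprenoid branches has no firm sign.

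**Figure D4:**
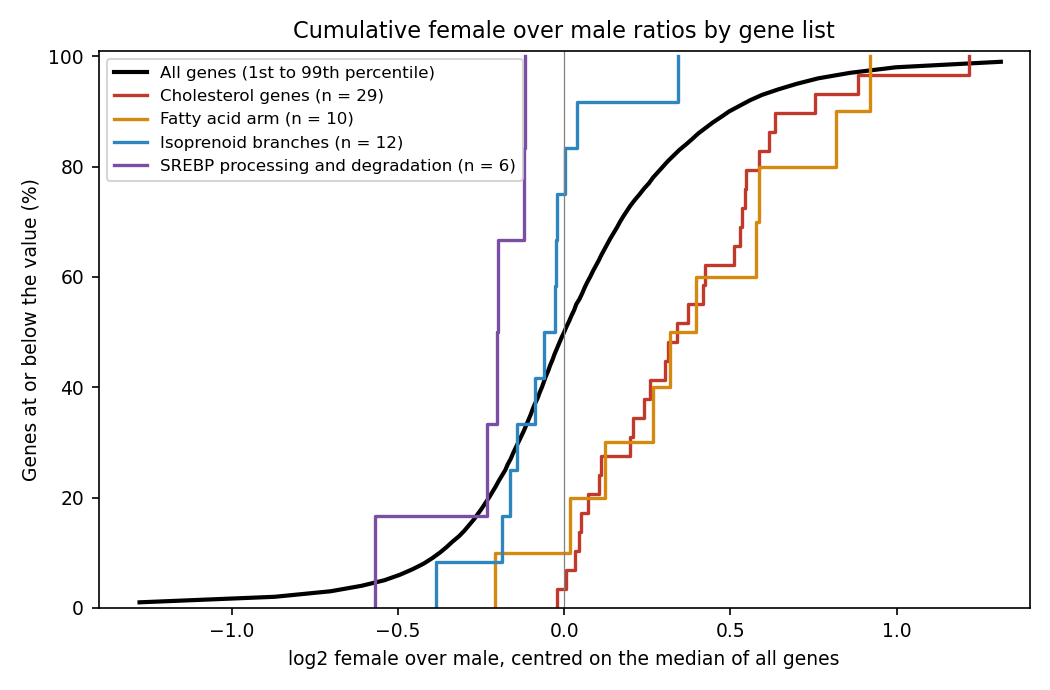
Cumulative share of genes, in percent, at or below each centred log2 ratio of the female over the male mean normalized count, for all genes from the 1st to the 99th percentile and for 4 lists. The curves of the 29 cholesterol genes (median 0.34) and of the 10 fatty acid genes (median 0.36) lie to the right of all genes up to their highest gene. There, at 1.22 for the cholesterol genes (Hmgcs1) and 0.92 for the fatty acid genes (Elovl5), each curve crosses that of all genes. The curve of the 6 SREBP processing genes (median -0.20) lies to the left of all genes over its upper 5 genes.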

How the data were processed

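RNA-seq was made from rRNA-depleted liver RNA. Alignment to GRCm39 was done by the authors in STAR (2.7 in the submitters' processing notes), and HTSeq counted reads with 1 mapped position per gene of the Ensembl annotation, with the reverse strand setting. Males and females were then normalized and analysed apart. The deposited signal used here is 1 column per table, the mean normalized count (counts divided by size factors) of the 6 livers of a sex. The other 5 columns of each table, the log2 fold change, its standard error, the test statistic and the p-values of the authors' comparison, were not used, and neither were the ATAC-seq lists, which hold positions and directions of that comparison. The sum of the means was 3.03e+07 in males and 3.08e+07 in females. The smallest mean in the female table is 6.61, and 106 genes with a mean of at least 10 in males are not listed there.

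Genes were joined by Ensembl identifier. Exon lengths and positions came from GENCODE M39 on GRCm39, and 18045 of the 18149 genes listed in both tables had a length. The authors counted reads on a different annotation release, so exon lengths and overlaps may include sequence that was not counted. The effect of this on the length-scaled levels was not tested. Promoter sequences are RefSeq's on GRCm38.p6, and no coordinates of the 2 builds were compared. Protein sequences were not used here. Computation was in Python 3.11.15 with pandas 2.3.3, numpy 2.4.6 and scipy 1.17.1, and plots in matplotlib 3.10.9. The ratio was tested on simulated counts that held no variation between mice. The motif search was tested on short made-up sequences, for TCACNCCAC alone. The members, the named lists, which were to be reported in full, and the motifs were chosen with earlier results of these data known. Alternatives were other minimums, centrings, folds, pseudocounts and lengths.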

Additional observations from a re-analysis of the deposited data

How the results depend on the processing

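No paired analysis was possible because the tables hold 1 pooled mean per sex, and for the same reason no replicate could be left out. The count of 28 members above the centre stayed from 27 to 29, and no member was called lower under any alternative. At 1.5-fold, 6 members were called higher as reported, against 7.31% of all genes. With no minimum 5 were called, against 9.9% of all genes, as the ratio of Idi1 fell under the mark. That setting is one-sided, since the listed female means start at 6.61 while male means of the same genes run lower. The count was 6 when tables were scaled to their sums (8.0% of all genes) or centred on protein-coding genes (7.94%). It was 8 with a minimum of 100 (4.39%) and 9 with no centring (8.7%). At 2-fold the count was 1, against 1.99% of all genes. The members' median of 0.34 became 0.32 with no minimum, 0.38 with a minimum of 100, 0.39 with no centring, 0.37 with sum scaling and 0.36 with centring on protein-coding genes, and stayed at 0.34 with a pseudocount of 1. The median length-scaled level of 50.0 in male and 64.6 in female liver became 63.0 and 91.7 with the longest transcript as the length, and 58.0 and 77.4 when scaled over protein-coding genes. With the longest transcript, Ggps1 and not Mvk was the lowest member in female liver, the highest member stood 46.7-fold in male and 77.0-fold in female liver above the lowest (69.7-fold and 91.8-fold as reported), and 26 and not 27 members exceeded the protein-coding median in males. Without a spread between mice, differences as small as those between neighbouring members cannot be judged.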
